A study of Mus musculus with 6 samples.

Results

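The immunity-related GTPases (IRGs) examined here were the 7 mouse genes *Irgm1*, *Irgm2*, *Igtp*, *Iigp1*, *Tgtp1*, *Tgtp2* and *Ifi47*, found by their symbols among 55335 genes. All 7 were among the 13367 genes tested, whose mean reached 0.5 FPKM or more (fragments per kilobase of a gene's transcript, relative to the fragments of the whole library). The libraries were 6 RNA-seq samples of bone marrow-derived macrophages (BMDMs), which had been grown from *Cd177* WT male C57BL/6 bone marrow for 7 days with 25 ng/ml of the growth factor M-CSF. In 3 libraries the BMDMs had been cultured for 24 h in direct contact with *Cd177* WT neutrophils and in the other 3 with neutrophils labelled *Cd177* KO (*Cd177* encodes a surface protein of neutrophils). The neutrophils of both groups came from spinal cords of adult male mice at 3 days after a contusion injury, by magnetic sorting, and the BMDMs were recovered by sorting Ly6G-negative cells. The KO libraries are therefore WT macrophages, and the genotype is that of the neutrophils beside them. The comparison asks how macrophage expression differs with the *Cd177* genotype of the neutrophils. Neither the labels nor the methods say how many animals or cultures stand behind the replicates, so p-values measure the spread between these libraries, which may be technical.

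IRGs are GTPases that mouse cells make after exposure to interferons, above all interferon gamma. The effector members, with a GKS sequence in their nucleotide-binding loop (*Iigp1*, *Tgtp1*, *Tgtp2*, *Ifi47*), load onto vacuoles that hold parasites or bacteria and break them open. The regulatory members, with GMS in its place (*Irgm1*, *Irgm2*, *Igtp*), sit on the cell's own membranes and hold the effectors inactive there.

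Summed FPKM was between 302532 and 340717 per library, and low values implied about 17700000 to 20400000 fragments. *Cd177* itself had 0.544, 0.309 and 0.521 FPKM in the WT libraries and 1.79, 1.84 and 2.28 FPKM in the KO libraries. This ran against the labels of the neutrophils, so directions are given between libraries as labelled. Of 16 neutrophil markers, 12 were tested, 10 were higher and 1, *Mmp8*, was lower in the KO libraries, where their summed level was 557.5 to 572.4 FPKM against 202 to 261.9 FPKM in the WT libraries. *Ly6g* was listed at 0 in every WT library and at 0.660, 0.547 and 0.403 FPKM in the KO libraries. The macrophage markers summed to 5717 to 6808 FPKM in WT and 7135 to 7808 FPKM in KO, most of it *Lyz2* (4462 to 5731 and 5881 to 6588 FPKM). *Cd68* had 456.2 to 537.4 FPKM in WT and 546.7 to 587.4 FPKM in KO. The lowest of the list, *Mertk*, had 15.0 to 21.6 FPKM in WT and 26.9 to 34.4 FPKM in KO. Of the 7 macrophage markers, *Fcgr1* was lower (121.2 against 33.8 FPKM), *Adgre1* and *Mertk* were higher and 4 were not called. Of T and NK cell markers, *Cd3d*, *Prf1* and *Gzma* were at 0 throughout. The sum of that list was 1.95 to 2.46 FPKM in WT and 5.62 to 7.26 FPKM in KO, most of it *Cd4*. The B cell list summed to 0.711 to 1.35 FPKM in WT and 13.0 to 15.4 FPKM in KO, from *Ighm* and *Cd79b*, while *Cd79a* and *Ms4a1* were at or near 0. What part these other cells had in the results below was not tested, and in bulk libraries fewer cells of a type and less RNA per cell cannot be told apart.

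Interferon-responsive genes often carry 1 of 2 short sequences near their start. One is the gamma-activated site (GAS, TTCNNNGAA) and the other the interferon-stimulated response element (ISRE, GAAA, any 2 bases and GAAA), read by complexes of STAT and IRF proteins. The 250 bases before the RefSeq start of 6 of the 7 members (GRCm38.p6; all but *Iigp1*) were searched for both on either strand. An ISRE was found in 5 and a GAS in 4, and 4 held both, whereas 2.98% of 32851 promoters of this length held an ISRE, 7.02% a GAS and 0.332% both. The 5 stretches of 30 bases that end with the ISRE are shown on the coding strand of each gene, because 4 of them repeat the same order of motifs, with the GAS and ISRE in capitals.
Igtp: actagccatTTCTAGGAActGAAACTGAAA
Irgm2: actagccatTTCCAGGAActGAAACTGAAA
Tgtp1: actagccatTTCCAGGAAtcGAAACTGAAA
Tgtp2: gctagccatTTCCAGGAAtcGAAACCGAAA
Irgm1: ctagcctgtttcaaGAAATAGAAACCGAAA
In *Igtp*, *Irgm2*, *Tgtp1* and *Tgtp2* the GAS came before the ISRE with 2 bases between them. These 4 stretches are nearly the same in all their letters, so they cannot be counted as independent finds beside the share of all promoters. *Irgm1* had no GAS and 2 overlapping ISREs, and *Ifi47* had neither motif in the 250 bases. The ISRE began 34 bases before the RefSeq start in *Igtp*, 64 in *Irgm2*, 77 in *Tgtp1*, 70 in *Tgtp2*, and 30 and 24 in *Irgm1*. In GENCODE M21 the *Igtp* stretch (chr11:58199502-58199531, plus strand) lay in no gene, and that of *Irgm2* (chr11:58214893-58214922, plus strand) in an intron of a longer *Irgm2* transcript. The *Tgtp1* stretch (chr11:48992314-48992343, minus strand) was intronic to *Tgtp1* and *Olfr56* and the *Tgtp2* stretch (chr11:49064273-49064302, minus strand) to *Olfr56*. The *Irgm1* stretch (chr11:48871435-48871464, minus strand) was exonic in an *Irgm1* transcript of that annotation. A match to these letters is a description and not a measured binding site. Among tested genes with a promoter in the table, an ISRE was present in 8.63% of 1008 that were lower in the KO libraries, 3.04% of 2632 that were higher and 2.66% of 5639 that were not called. The shares with a GAS lay closer together, at 9.13%, 6.84% and 6.76% in the same order.

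All 7 IRG genes were lower in the libraries labelled KO, and none was higher (0 also at an unadjusted p under 0.05). The test was limma on log2(FPKM + 0.5), two-sided, with Benjamini-Hochberg adjustment over all 13367 genes and a threshold of 0.05. By that test 10.5% of all tested genes were lower and 27.1% were higher. The mean FPKM of the members fell between 4.95-fold (*Irgm2*) and 88.7-fold (*Iigp1*). Their median log2 fold change (KO minus WT) was -3.38, beside 0.19 over all tested genes. Every KO value was under every WT value in all 7, as it was in 14.4% of tested genes. All 7 also had a log2 fold change of -2 or lower with an adjusted p under 0.05, which 193 tested genes (1.44%) had, and all 7 passed the threshold used in the study, a change of more than 2-fold with p under 0.05 before adjustment, which 4.43% of genes passed in this direction. Counted from the most negative log2 fold change of 13367, *Iigp1* ranked 41, *Tgtp2* 46, *Ifi47* 59, *Tgtp1* 63, *Igtp* 83, *Irgm1* 136 and *Irgm2* 169. With 3 libraries against 3, an exact permutation test of a single gene cannot go below p = 0.1, so none was used for the members.

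**Figure D1:**
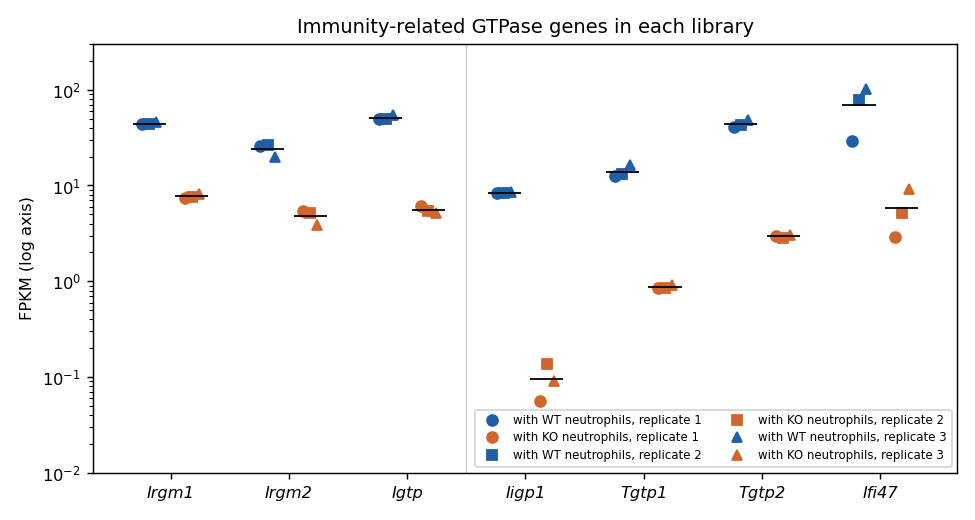
FPKM (log axis) of the 7 genes in each library, blue with WT and orange with KO neutrophils, with symbols for replicates 1 to 3 and lines at the group means. Regulatory members are left of the vertical line and effectors right of it; in each gene the 3 KO values lie under the 3 WT values, and *Ifi47* has the widest relative spread in both groups.

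Among the regulatory members, *Irgm1* (ENSMUSG00000046879, chr11:48861968-48871683, minus strand), which acts in autophagy and restrains the effectors on lysosomes and the Golgi, had 43.3, 43.9 and 45.7 FPKM in the WT libraries. In the KO libraries it had 7.47, 7.54 and 8.17 FPKM. The groups were far apart and each was tight, with means of 44.3 ± 1.22 (SD, n = 3) and 7.72 ± 0.384 FPKM. The log2 fold change was -2.45 (95% interval -2.63 to -2.26, adjusted p = 3.57e-06).

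*Igtp* (ENSMUSG00000078853, chr11:58199556-58207591, plus strand), also called Irgm3 and known for its place on the endoplasmic reticulum and lipid droplets, had 49.0, 49.4 and 55.0 FPKM in the WT libraries. It had 6.06, 5.37 and 5.17 FPKM in the KO libraries. It was the regulatory gene with the largest fall, from 51.1 ± 3.37 to 5.54 ± 0.463 FPKM (9.24-fold; log2 fold change -3.10, standard error 0.10, adjusted p = 3.38e-06).

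*Irgm2* (ENSMUSG00000069874, chr11:58199618-58222782, plus strand), a regulator on the Golgi, had 25.8, 26.4 and 19.8 FPKM in the WT libraries and 5.47, 5.19 and 3.88 FPKM in the KO libraries. Replicate 3 was the lowest in both groups, without overlap between them. Its log2 fold change of -2.20 (95% interval -2.59 to -1.81, adjusted p = 0.000132) was the smallest among the members. *Igtp* and *Irgm2* overlap on the same strand, and 162 annotated exon bases, 8.0% of those of *Igtp* and 4.4% of those of *Irgm2*, belong to both.

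Among the effectors, *Iigp1* (ENSMUSG00000054072, chr18:60376027-60392634, plus strand), also called Irga6 and among the first effectors to reach the vacuole of *Toxoplasma*, had 8.41, 8.37 and 8.49 FPKM in the WT libraries. In the KO libraries it had 0.0564, 0.138 and 0.0909 FPKM. It was the most even member in WT (coefficient of variation, CV, 0.733%) and close to the detection limit in KO. At the depth implied by low values, the KO values stood for about 17 fragments in all and the WT values for about 1446. A fold of 88.7 then has an interval of 55.4 to 152 (95%), from the counting error of the KO fragments alone. These counts are rough, since low values lay only loosely on whole numbers of fragments. The log2 fold change of -3.91 (95% interval -4.16 to -3.65, adjusted p = 2.08e-06) understates this because of the added 0.5, and was -5.47 with 0.1 added and -3.11 with 1 added.

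*Tgtp1* (ENSMUSG00000078922, chr11:48985327-48994172, minus strand) and *Tgtp2* (ENSMUSG00000078921, chr11:49057194-49064206, minus strand) are near-identical copies that encode Irgb6, an effector that binds vacuole membranes early. *Tgtp1* had 12.5, 13.2 and 16.2 FPKM in WT and 0.859, 0.855 and 0.923 FPKM in KO. *Tgtp2* had 40.7, 42.6 and 47.7 FPKM in WT and 2.97, 2.81 and 3.06 FPKM in KO. Both genes were lower by like ratios, 15.9-fold for *Tgtp1* (log2 fold change -3.38, standard error 0.12, adjusted p = 5.09e-06) and 14.8-fold for *Tgtp2* (-3.68, 0.09 and 1.86e-06). Of all 100-base stretches of their transcripts, 70.3% of those of *Tgtp1* occurred in *Tgtp2* and 76.8% of those of *Tgtp2* in *Tgtp1*, so the division of reads between them is uncertain. Summed as 1 gene they had 53.1, 55.8 and 63.9 FPKM in WT and 3.83, 3.67 and 3.99 FPKM in KO (log2 fold change -3.74, standard error 0.10, adjusted p = 2.07e-06).

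*Ifi47* (ENSMUSG00000078920, chr11:49076587-49096974, plus strand), also called Irgd, is an effector of less clear function. It had 29.2, 77.7 and 101.5 FPKM in the WT libraries and 2.93, 5.21 and 9.24 FPKM in the KO libraries. Both groups were widely spread, with CVs of 53.1% and 55.2%, and replicate 1 was the lowest and replicate 3 the highest in each. A CV of at least 50% in both groups was found in 221 tested genes (1.65%), 21 of them with a mean of at least 5 FPKM. The log2 fold change was -3.43 with a standard error of 0.54 (95% interval -4.71 to -2.15, adjusted p = 0.00308), the widest interval among the members. The lowest WT value was still above the highest KO value.

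In the WT libraries the order of mean levels was *Ifi47* (69.5 FPKM), *Igtp* (51.1), *Irgm1* (44.3), *Tgtp2* (43.7), *Irgm2* (24.0), *Tgtp1* (14.0) and *Iigp1* (8.42). *Ifi47* overlapped with *Igtp*, *Irgm1* and *Tgtp2*, and *Irgm1* lay within the range of *Tgtp2*, whereas each later step was larger than the spread. In the KO libraries the order was *Irgm1* (7.72 FPKM), *Ifi47* (5.79), *Igtp* (5.54), *Irgm2* (4.84), *Tgtp2* (2.95), *Tgtp1* (0.879) and *Iigp1* (0.0950). There *Ifi47* overlapped with *Irgm1*, *Igtp*, *Irgm2* and *Tgtp2*, and *Igtp* with *Irgm2*. The places of *Tgtp1* and *Tgtp2* in both orders depend on the uncertain division of reads between them. Summed, they had 53.1 to 63.9 FPKM in WT and 3.67 to 3.99 FPKM in KO.

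The 7 genes together had 208.9, 261.5 and 294.3 FPKM in WT and 25.8, 27.1 and 30.5 FPKM in KO, a ratio of means of 9.16. The 3 regulatory genes summed to 118.2, 119.7 and 120.4 FPKM in WT and 19.0, 18.1 and 17.2 FPKM in KO, a ratio of 6.60. For the 4 effectors the sums were 90.8, 141.8 and 173.9 FPKM and 6.81, 9.01 and 13.3 FPKM, a ratio of 13.9. The regulatory genes thus held 56.6%, 45.8% and 40.9% of the family's FPKM in the WT libraries and 73.6%, 66.8% and 56.4% in the KO libraries, and the groups overlapped, since the highest WT share was above the lowest KO share. The share of the widely spread *Ifi47* ran from 14.0% to 34.5% in WT and from 11.4% to 30.3% in KO. Without it the family summed to 179.7, 183.8 and 192.8 FPKM in WT and 22.9, 21.9 and 21.3 FPKM in KO. Of those sums, the regulatory shares did not overlap between the groups. *Irgm1* went from a mean of 17.7% to 27.8% of the sum and *Iigp1* from 3.37% to 0.340%, while *Igtp* held 20.4% and 20.1%. These shares are descriptions, and the difference in fold between regulators and effectors was not tested.

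**Figure D2:**
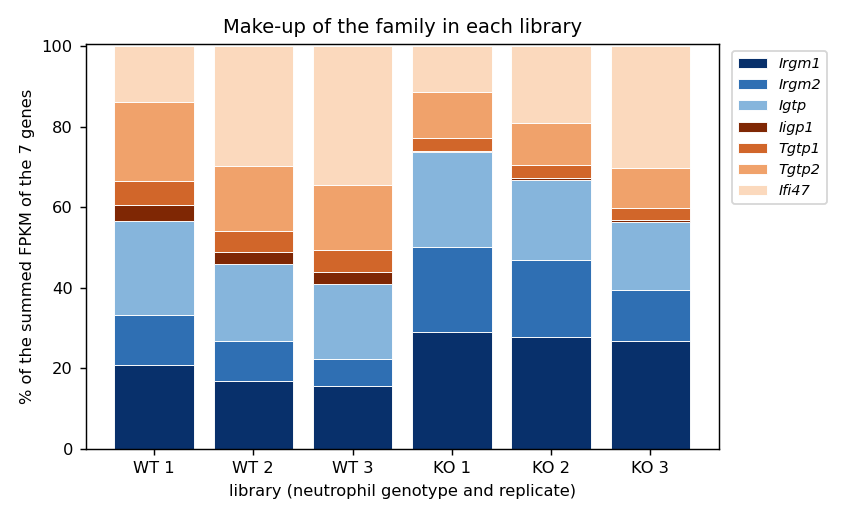
Share (%) of the summed FPKM of the 7 genes held by each gene in each library, with the regulatory genes in blue and the effectors in orange. The blue part is 40.9% to 56.6% in the WT libraries and 56.4% to 73.6% in the KO libraries, and *Iigp1* is barely visible in the latter.

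**Figure D3:**
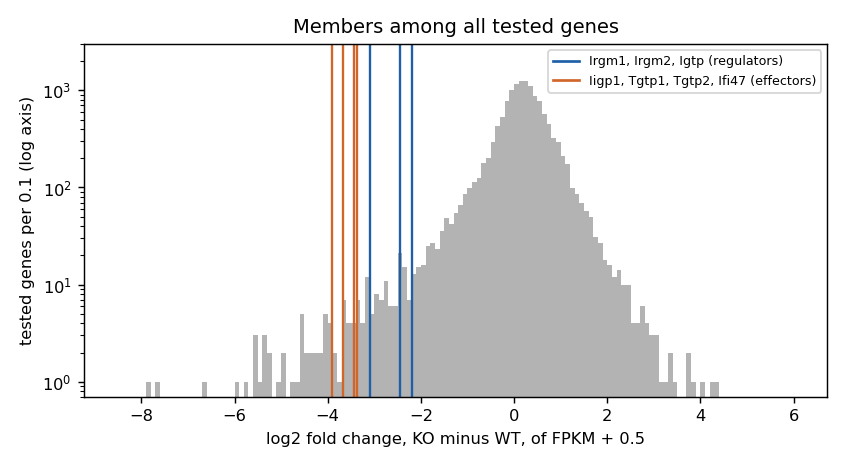
Number of tested genes (log axis) by log2 fold change, KO minus WT, with vertical lines at the 3 regulatory genes (blue) and the 4 effectors (orange). All 7 lines lie between -3.91 and -2.20, in the lower tail of a distribution whose median is 0.19.

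Other genes of the IRG family were also lower in part. Of 13 listed, 12 were in the table and 9 were tested, of which 5 were lower, 0 were higher (0 also at an unadjusted p under 0.05) and 4 were not called, with a median log2 fold change of -1.28. For all tested genes the shares were 10.5% lower and 27.1% higher. *Gm12250*, which encodes the effector Irgb10, went from 37.8 ± 2.34 to 2.39 ± 0.388 FPKM (log2 fold change -3.74, adjusted p = 3.6e-06). *Gm5431* went from 7.72 to 2.55 FPKM (-1.43, adjusted p = 0.000228). *Gm4951*, *Gm8979* and *Gm12185*, named after their values were seen, also passed, with log2 fold changes of -2.72, -1.53 and -1.02. Their mean FPKM fell 10.6-fold, 9.25-fold and 4.41-fold, since the added 0.5 pulls low values together. *Gm12185* (0.935 to 0.212 FPKM) shares 223 exon bases with *Tgtp1* on the same strand (7.0% of those of *Tgtp1*), so reads of these genes may be mixed. *Irgq*, a distant relative that is not known to answer to interferon, had 7.01, 7.14 and 3.86 FPKM in WT and 7.84, 7.92 and 5.24 FPKM in KO (log2 fold change 0.23, adjusted p = 0.523), and *9930111J21Rik2* had 5.08 ± 2.38 and 5.51 ± 1.78 FPKM (0.17, adjusted p = 0.765).

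Guanylate-binding proteins (GBPs) are the larger interferon-inducible GTPases that act on the same vacuoles as the IRGs. Of 11 listed, 9 were tested, 8 were lower, 0 were higher (0 also at an unadjusted p under 0.05) and 1 was not called. The shares of all tested genes were 10.5% lower and 27.1% higher. The median log2 fold change was -1.97, in which *Gbp10*, listed at 0 in every KO library, stands at its fitted value. The added 0.5 also compressed other low genes, such as *Gbp4* (35.1-fold, fitted at -1.56) and *Gbp6* (76.7-fold, fitted at -3.94), both named after their values were seen. The median thus understates the fall in mean FPKM. *Gbp2* went from 158.8 ± 6.61 to 5.48 ± 1.10 FPKM (log2 fold change -4.75, adjusted p = 2.38e-06) and *Gbp3* from 42.4 ± 4.10 to 1.40 ± 0.304 FPKM (-4.50, adjusted p = 3.36e-06). The change was smaller in *Gbp7* (11.5 to 2.53 FPKM; -1.97) and *Gbp9* (9.20 to 2.13 FPKM; -1.86). *Gbp8*, the member not called, had 0.453 and 0.680 FPKM (0.32, adjusted p = 0.169). All 5 GBPs with a promoter in the table held an ISRE and 2 held a GAS. Of 6 other IRG genes with a promoter there, 2 held an ISRE, 2 a GAS and 2 both.

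**Figure D4:**
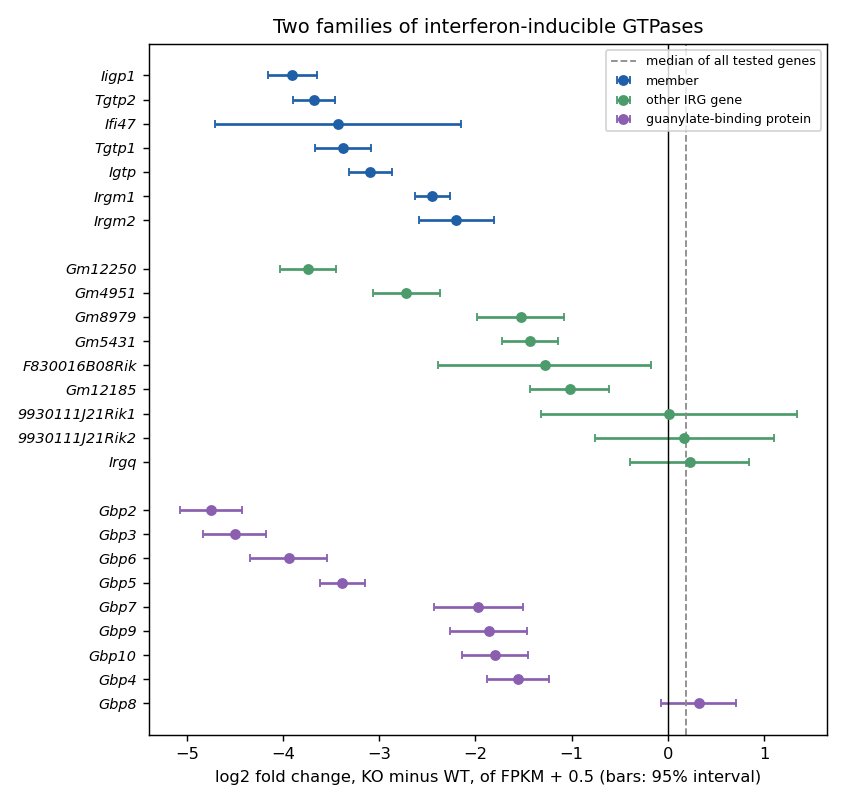
Log2 fold change (KO minus WT) with 95% intervals for the 7 members, the 9 other tested IRG genes and the 9 tested GBPs. The intervals of all 7 members lie under -1.81, while *Irgq*, *9930111J21Rik1*, *9930111J21Rik2* and *Gbp8* have intervals that include 0.

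In the pathway from interferon gamma to these genes, the transcription factor gene *Irf1* was lower and the receptor gene *Ifngr1* was higher in the KO libraries. Of 11 listed genes, 9 were tested, 5 were lower, 2 were higher and 2 were not called (median log2 fold change -0.57). Over all tested genes, 10.5% were lower and 27.1% higher. *Irf1*, an interferon-induced transcription factor, had 45.5, 45.0 and 52.4 FPKM in WT and 11.1, 11.6 and 12.0 FPKM in KO (log2 fold change -1.99, adjusted p = 1.44e-05). The groups did not overlap. *Socs1* (-2.55), *Nlrc5* (-2.48) and *Jak2* (-0.57), named after their values were seen, were also lower. The receptor chain gene *Ifngr1* ran the other way, with 13.5, 15.2 and 11.2 FPKM in WT and 57.8, 60.5 and 43.9 FPKM in KO (1.98, standard error 0.16, adjusted p = 0.000191). The other chain, *Ifngr2*, had means of 42.0 and 37.9 FPKM (-0.15, adjusted p = 0.162), and this became a call of lower expression after median-of-ratios scaling (-0.36, adjusted p = 0.0133) and upper-quartile scaling (-0.23, adjusted p = 0.0495). The kinase *Jak1* was higher (32.1 to 43.9 FPKM; 0.45, adjusted p = 0.00869), but not after median-of-ratios scaling (0.24, adjusted p = 0.0775). *Ifng* was listed at 0 in 5 libraries and at 0.105 FPKM in WT replicate 3.

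Of 9 genes of the type I interferon axis, 8 were tested, 4 were lower, 0 were higher (0 also at an unadjusted p under 0.05) and 4 were not called, with a median of -0.22. Beside this, 10.5% of all tested genes were lower and 27.1% higher. *Irf7*, a factor that amplifies the type I response, had 40.5, 41.6 and 41.9 FPKM in WT and 2.55, 2.74 and 2.19 FPKM in KO (log2 fold change -3.81, adjusted p = 1.86e-06). *Stat2* went from 32.9 ± 10.9 to 4.58 ± 0.620 FPKM (-2.67, adjusted p = 0.000394). *Usp18* (-4.37) and *Irf9* (-0.33), named after their values were seen, were also lower. The call of *Irf9* (adjusted p = 0.0273) was lost when either WT replicate 1 or 2, or any KO library, was left out (adjusted p = 0.0625 to 0.0916) and on rescaling to TPM (0.0739), with log2 fold changes of -0.36 to -0.29 in these fits. The receptor chains *Ifnar1* (22.3 and 20.5 FPKM; -0.11, adjusted p = 0.621) and *Ifnar2* (30.9 and 32.9 FPKM; 0.09, adjusted p = 0.384) were not called, but *Ifnar1* was called lower without replicate 3 of both groups (-0.17, adjusted p = 0.0376). *Ifnb1* was listed at 0 in 5 libraries and at 0.0740 FPKM in WT replicate 3.

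The next list held autophagy and ubiquitin genes whose products help to place IRGs on membranes. Of 16, all tested, 3 were lower, 3 were higher and 10 were not called, beside 10.5% lower and 27.1% higher among all tested genes, and with median-of-ratios scaling 5 were lower and 2 higher. The median log2 fold change of 0.05 lay near that of all genes. *Sqstm1*, the cargo receptor p62, went from 248.1 ± 10.4 to 143.7 ± 8.03 FPKM (-0.79, adjusted p = 0.000523). *Trim21*, a ubiquitin ligase (8.42 to 3.96 FPKM), and *Atg5* of the LC3 conjugation complex (adjusted p = 0.016), named after their values were seen, were the others lower. The call of *Atg5* was lost without WT replicate 1, KO replicate 1 or KO replicate 2 (adjusted p = 0.0546, 0.0714 and 0.0667). *Map1lc3a* was higher (23.1 to 32.7 FPKM; 0.49, adjusted p = 0.0125), though not after median-of-ratios scaling (0.28, adjusted p = 0.112), and *Ulk1* (0.86) and *Stx17* (0.68), also named after their values were seen, were higher. *Gabarap* (-0.15, adjusted p = 0.401) and *Gabarapl1* (0.07, adjusted p = 0.618), which encode ubiquitin-like proteins of this machinery, were not called.

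By position, 6 members lay in 2 clusters on chromosome 11, *Irgm1*, *Tgtp1*, *Tgtp2* and *Ifi47* within 235 kb and *Igtp* and *Irgm2* 9.1 Mb away, and *Iigp1* lay on chromosome 18. Of 28 genes of other families within 100 kb of a member, 11 were tested, 3 were lower, 1 was higher and 7 were not called, with a median log2 fold change of -0.02. Among all tested genes 10.5% were lower and 27.1% higher. Neighbours with a mean under 0.5 FPKM are outside these counts and this median. Of those, named after their values were seen, *AC132320.1* (0.898 to 0.0247 FPKM), *BC023105* (0.861 to 0.0102), *Gm12188* (0.840 to 0) and *Olfr1396* (0.134 to 0.00387) were lower without overlap. *Trim7* (0.190 to 0.429 FPKM) and *4930438A08Rik* (0.069 to 0.285) were higher without overlap. The nearest tested genes of other families beside the 2 clusters on chromosome 11 were not called, namely *Gm12184* (0.10, adjusted p = 0.548), *Mrpl22* (-0.04, adjusted p = 0.845) and *Zfp692* (0.09, adjusted p = 0.639). The nearest beside *Iigp1*, *Smim3*, was lower (10.2 ± 1.07 to 6.07 ± 0.217 FPKM; -0.69, adjusted p = 0.00235). On the *Ifi47* side of its cluster, no tested gene of another family began within 100 kb. *Olfr56*, which runs across *Ifi47* and past it, was lower there (-2.77). The single gene called higher was *Trim41* (0.43, adjusted p = 0.0304), named after its values were seen, whose call was lost without WT replicate 2, KO replicate 1 or KO replicate 2 (adjusted p = 0.0826, 0.106 and 0.105), with no filter (0.0587) and with median-of-ratios, upper-quartile, TPM and quantile scaling (0.192, 0.0642, 0.0598 and 0.0586). The other genes that were lower, also named after their values were seen, were *Psme2b* (39.9 ± 8.88 to 14.3 ± 2.30 FPKM; -1.44, adjusted p = 0.00129) and *Olfr56* (3.84 ± 0.653 to 0.132 ± 0.0170 FPKM; -2.77, adjusted p = 2.62e-05). *Olfr56* is annotated across *Tgtp1*, *Tgtp2* and *Ifi47* and shares 111 exon bases with *Ifi47* (4.5% of its exon bases) on the same strand, so reads of these 2 genes may be mixed.

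**Figure D5:**
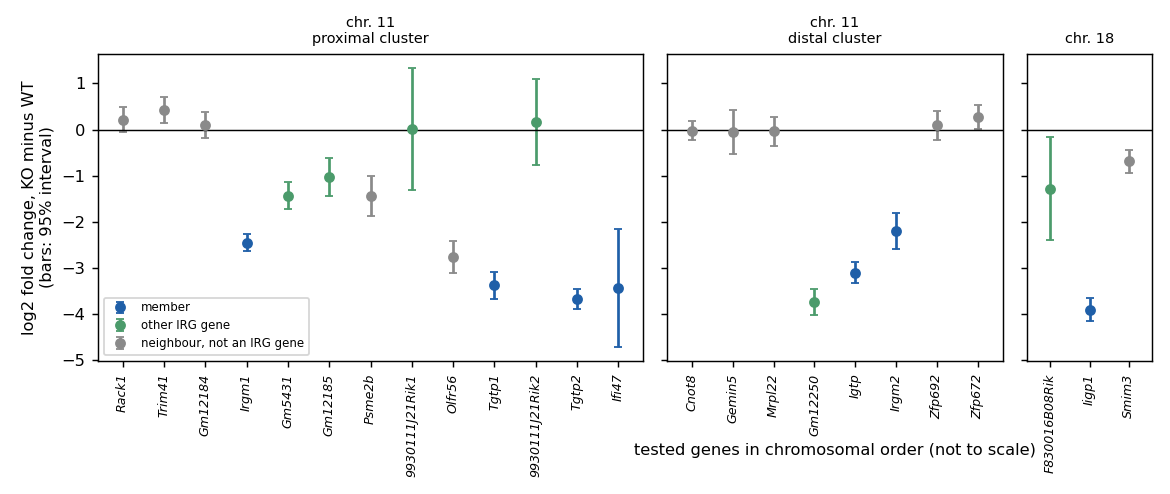
Log2 fold change (KO minus WT) with 95% intervals of tested genes within 100 kb of a member, in chromosomal order and not to scale, for the 2 clusters on chromosome 11 and the locus on chromosome 18. Members are blue, other IRG genes green and genes of other families grey; most grey points lie near 0, apart from *Psme2b*, *Olfr56* and *Smim3*.

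Tested genes outside the members were ranked by how like their pattern over the 6 libraries was to the mean of the 7 members. Genes with clone names (such as Gm and Rik) were left out. The most alike were *Mmp10* (a matrix metalloproteinase), *Hmox1* (heme oxygenase), *Il1b* (the cytokine interleukin-1 beta), *Pdpn* (podoplanin) and *Slamf8* (a SLAM family receptor). Likeness was the root mean square difference in log2(FPKM + 0.5), centred on the WT mean, and was 0.067, 0.113, 0.115, 0.122 and 0.125 in that order. The members themselves lay between 0.135 (*Igtp*) and 0.736 (*Irgm2*) from their own mean. These 5 genes were chosen for this pattern, which has 2 groups of 3 libraries behind it. *Hmox1* had 3159, 3125 and 3695 FPKM in WT and 396.2, 382.3 and 420.1 FPKM in KO, and *Mmp10* had 5.90, 6.08 and 6.87 FPKM in WT and 0.230, 0.305 and 0.283 FPKM in KO.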

How the data were processed

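The authors deposited FPKM per Ensembl gene for 6 libraries, with replicates not pooled. The submitters' processing notes name fastp 0.17.1, HISAT2 2.1.0, DESeq2 1.18.1 and R 3.4.3, while the quantification tool, annotation and genome build are not given in the sources used here. The labels and the methods name different extraction reagents, library kits and sequencers. Of 55335 identifiers, 55154 (99.7%) were named with GENCODE M21 (GRCm38), which also gave positions. FPKM was used without further scaling, so changes in abundant genes shift all others. Of low values, 37.3% to 40.4% lay within 0.1 of a whole number of fragments (20% by chance), so no count test was run. Genes were tested with limma 3.58.1 in R 4.3.3 (lmFit, eBayes with trend) without covariates, and the code was tested on simulated data. Shared exon bases and 100-base stretches came from GENCODE transcripts, promoters from RefSeq (GRCm38.p6), and Python 3.11.15 was used for summaries. A planned comparison of proteins was not run here.

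The members, gene lists and tests were chosen with earlier results of these data known. Named are the members, up to 4 genes per list with the highest mean FPKM, genes of a list called against its majority, *Irf1*, *Ifngr1*, *Ifng*, *Ifnb1*, the 5 genes of like pattern and the nearest tested neighbours, with others marked in the text. Some genes of the lists are counted but not reported here by name. Alternatives were pseudocounts of 0.1 and 1, other filters, 4 scalings, 2 variance settings, a replicate block, an adjusted p under 0.01 and each library left out. Leaving out replicate 3 of both groups was added after the data were seen.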

Additional observations from a re-analysis of the deposited data

How the results depend on the processing

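The log2 fold changes of the 7 members were recomputed 125 times under the alternatives, and all 125 kept their direction and an adjusted p under 0.05. *Iigp1* was not tested with a minimum mean of 5 FPKM, which left 6 of 6 lower. The widest ranges were those of *Iigp1* (-5.47 to -3.11, the ends being pseudocounts of 0.1 and 1) and *Ifi47* (-3.96 to -3.05), whose highest adjusted p was 0.0141, without WT replicate 2. Scaling moved the median of all genes from 0.19 to 0.00 with median-of-ratios, 0.11 with upper quartiles and 0.03 with quantile normalization, and the share of calls that were higher from 72.0% to 49.3%, 63.6% and 55.7%. Median-of-ratios scaling gave 2215 genes lower and 2156 higher, against 1408 and 3619, and left 1 gene of the interferon gamma axis higher. A minimum mean of 5 FPKM tested fewer genes and gave 1756 higher, 371 lower past the study's threshold (592 in the main test), 4 lower GBPs and 2 lower other IRG genes. An adjusted p under 0.01 left 922 lower and 2007 higher. Autophagy genes that were lower numbered 5 with median-of-ratios scaling and with quantile normalization, and those that were higher numbered 5 without replicate 3 of both groups. Neighbours called higher numbered 0 with no filter, median-of-ratios, upper-quartile or TPM scaling, 2 without a variance trend and without replicate 3 of both groups, and 0 to 2 with single libraries left out. Apart from what each filter removed, the cause was not tested. Uncalled values changed sign in *Ifnar2* (-0.12) and *Gabarapl1* (-0.15) with median-of-ratios scaling, in *Gabarapl1* (-0.02) with upper quartiles and in *Irgq* without WT replicate 3 (range with single libraries left out -0.04 to 0.41).

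Both groups use the replicate numbers 1 to 3, and deviations of same-numbered libraries correlated at 0.116, 0.036 and 0.264. WT replicate 1 correlated best with KO replicate 2 (0.16), and WT replicate 2 with KO replicate 1 (0.121). Replicate 3 of each group correlated best with replicate 3 of the other, and negatively with replicates 1 and 2 (-0.233 to -0.131). Deviations from a group mean cancel out within the group, so the negative values follow in part from the positive one and add no separate evidence. A match by number was thus seen for replicate 3 only, and the numbers were not taken as pairs in the main test. A replicate block gave 1681 genes lower and 4253 higher, with all 7 members lower.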
